A study of Homo sapiens with 4 samples.

Results

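The genes that build ribosomes in the nucleolus were followed in ES-2 cells after knockdown of MAML2 and of the YAP1-MAML2 (YM) fusion. The 58 genes were taken by symbol from a list of nucleolar ribosome biogenesis factors, and all 58 were found among the 19626 genes of the deposited tables. ES-2 is an established human line labelled as ovarian clear cell carcinoma, and it carries the YM fusion endogenously. Cells were transduced with pLKO.1 lentivirus expressing either a nontargeting hairpin (shCtl, n = 2 independent cultures) or the hairpin shM2-3 against MAML2 (n = 2), and total RNA was sequenced from all 4 cultures. shM2-3 recognises a sequence that MAML2 and the fusion share, so lower MAML2 and lower fusion cannot be told apart, and it was the only MAML2 hairpin among these samples. Both groups carry the fusion, were grown in the same serum-containing medium and were infected on consecutive days. The labels place RNA isolation 96 h after the first infection, whereas the paper's methods state a shorter interval.

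Ribosome production starts when RNA polymerase I (Pol I) copies the ribosomal DNA into one long precursor RNA. Small nucleolar ribonucleoprotein particles (snoRNPs) guide the methylation and pseudouridylation of that precursor, the small subunit processome folds and cuts the part that becomes the small ribosomal subunit, and a separate set of helicases, GTPases and scaffold proteins assembles the large subunit. The pathway is large and costly, is usually run at a high rate in cancer cells, and holds many textbook target genes of the transcription factor MYC.

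The estimated counts summed to between 20051083 and 23978660 per library. MAML2, the targeted gene, lay at 8.61 and 8.26 RPKM in shCtl and 3.11 and 2.998 RPKM in shM2-3, with a log2 fold change (shM2-3 against shCtl, here and in the following given ± SE) of -1.40 ± 0.0688 and an adjusted p of 5.18e-10 (edgeR's quasi-likelihood F test, adjusted after Benjamini and Hochberg). MYC stood at 99.7 and 99.8 RPKM in shCtl and 12.8 and 12.7 RPKM in shM2-3 (log2 fold change -2.90 ± 0.0436). The cell type label was borne out only in part by its markers: KRT7, KRT8 and KRT18 were abundant, while NAPSA, PAX8 and EPCAM did not exceed 0.369 RPKM in any library. Markers of other cell types were read as a background. The 6 fibroblast markers summed to 8.01 and 7.95 RPKM in shCtl and 25.7 and 25.1 RPKM in shM2-3, nearly all of it PDGFRA, with COL1A2, COL3A1, DCN, LUM and POSTN below 0.5 RPKM in every library. The 5 leukocyte markers in the tables summed to 58.3 and 57.4 RPKM in shCtl and 41.1 and 40.02 RPKM in shM2-3, nearly all of it CD68, with PTPRC and CD3E near 0. Among them CD14 lay on the other side, at 0.0777 and 0.102 RPKM in shCtl and 0.890 and 0.866 RPKM in shM2-3, and LYZ varied from 0.129 to 2.34 RPKM with overlapping groups. The 4 endothelial markers summed to 9.40 and 10.6 RPKM in shCtl and 5.65 and 5.09 RPKM in shM2-3, most of it CDH5, with VWF near 0. PECAM1 went against this sum, with 0.0376 and 0.0308 RPKM in shCtl and 1.31 and 0.923 RPKM in shM2-3, and rose. The part of these markers in the results that follow was not tested. In bulk RNA, fewer cells of a kind and less RNA per cell cannot be told apart.

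Most of the biogenesis factors were lower after knockdown, by modest amounts. Of the 58 members, 44 had a log2 fold change below 0, and the median was -0.38, with quartiles at -0.58 and -0.018, against a median of -0.0037 over all 12157 genes tested. At an adjusted p of 0.05 or less, 35 members (60.3%) fell, where 36.4% of all genes tested fell, and 8 members (13.8%) rose, where 36.3% of all genes rose. The other 15 did not pass. Changes of 2-fold or more were few. In edgeR's quasi-likelihood test, 2 members, NPM1 and EBNA1BP2, were called lower at this size (3.45%, against 8.93% of all genes tested). None was called higher (against 9.24%), nor was any in DESeq2 or in limma. DESeq2 and limma on log2(RPKM + 1) called the same 2 lower, while limma on log2(RPKM + 0.1) called NHP2 lower besides them. No member reached a 2-fold increase at any p. The log2 fold changes ran from -1.21 for NPM1 to 0.85 for UBTF. No member was lost to the filter of more than 1 RPKM in at least 1 library, since the member with the lowest level, UTP15, lay above it in all 4 libraries.

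**Figure D1:**
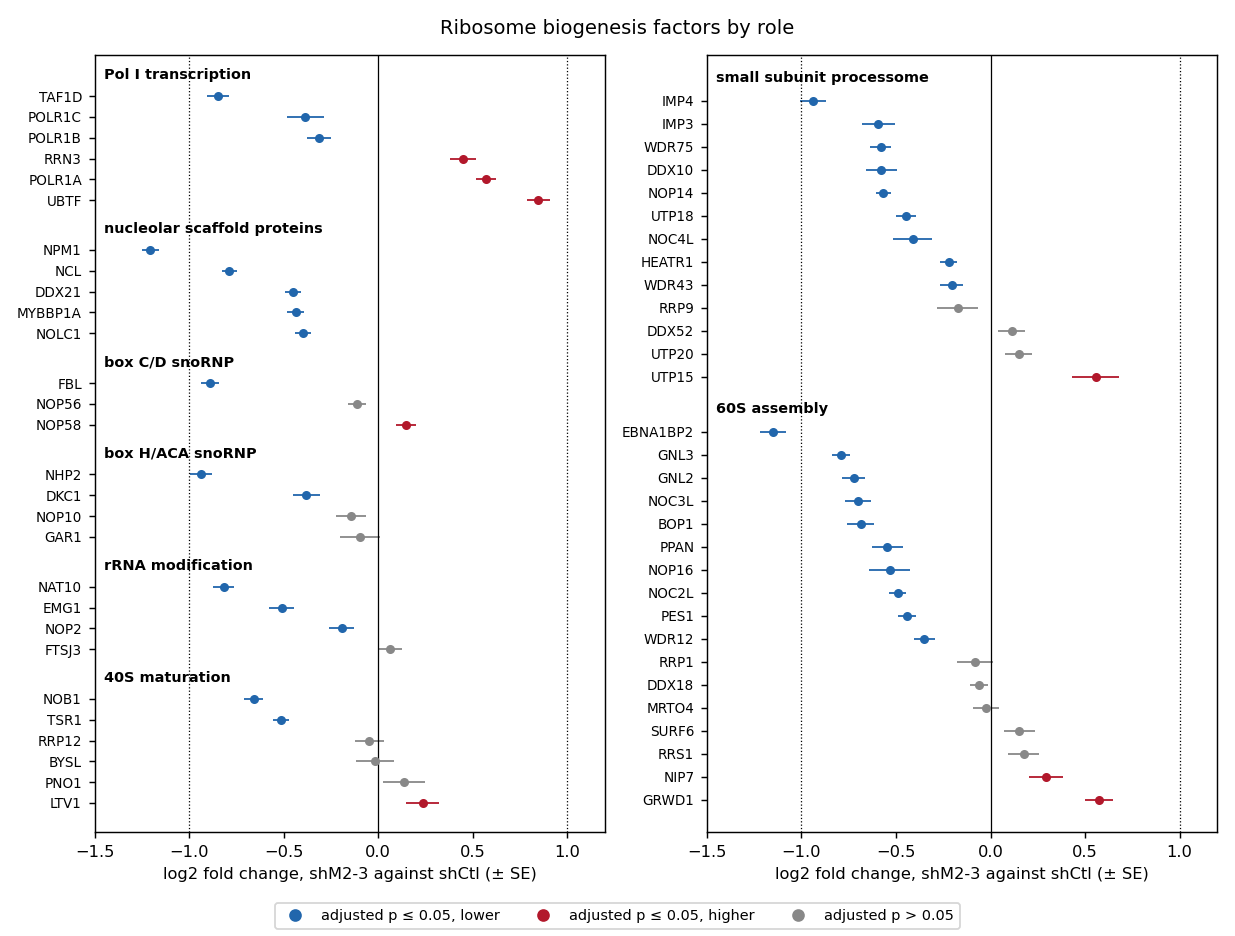
Log2 fold change of each of the 58 genes, shM2-3 against shCtl (horizontal axis, points with standard errors), grouped by role; blue points fell and red points rose at an adjusted p of 0.05 or less, grey points did not pass, and dotted lines mark a 2-fold change. The 5 scaffold genes all lie on the lower side, while the 6 Pol I genes lie on both sides of 0.

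NPM1 had the highest level per length of any member. It encodes nucleophosmin, the abundant chaperone of the granular part of the nucleolus, on the plus strand of chromosome 5 of hg38 from 171387116 to 171411810. It had 705 and 669.8 RPKM in shCtl and 273 and 296 RPKM in shM2-3, so that 41.4% of the shCtl mean remained. The groups were far apart relative to the difference between cultures, with means of 688 ± 25.1 and 285 ± 16.1 RPKM (SD, n = 2 each). The log2 fold change of NPM1 was -1.21 ± 0.0454, with an adjusted p of 3.26e-11 from edgeR's quasi-likelihood test. GENCODE release 44 names 49 pseudogenes of NPM1. The authors removed ambiguous alignments, and the effect of these pseudogenes on the NPM1 counts was not tested.

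EBNA1BP2, a large subunit assembly factor, was the other member past the 2-fold limit. The annotation places it on the minus strand of chromosome 1 from 43164175 to 43270936, a span that overlaps CFAP57 and TMEM125. It had 43.4 and 47.6 RPKM in shCtl and 19.0 and 20.2 RPKM in shM2-3, and the log2 fold change was -1.15 ± 0.0680, with an adjusted p of 3.66e-09 from edgeR's quasi-likelihood test. The libraries were not strand-specific, so reads from genes on opposite strands at one locus cannot be separated. In all, 32 of the 58 members overlap another annotated protein-coding or long noncoding RNA gene, on either strand.

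The promoters of these genes were searched for letters that the choice of members did not use, and an E-box was found in fewer than 50% of them, though in a larger share than among all tested genes. RefSeq promoter windows of GRCh38.p14, from 250 bases before to 50 bases after each annotated start, were at hand for 51 of the 58 members. The E-box letters CACGTG, which read the same on both strands and form the textbook binding sequence of MYC-MAX and related factors, occurred in 23 of the 51 (45.1%), in 12.6% of the 9571 tested genes with a window, and in 8.77% of all 27305 genes with a window. Near the start the contrast was wider, since an E-box lay within 50 bases of an annotated start in 22 members (43.1%) and in 5.37% of tested genes. Median GC content was close, at 63.7% for members and 65.3% for tested genes. Of the 33 members with a window that fell, 14 held an E-box, as did 9 of the other 18. The core of the TEAD motif, GGAATG on either strand, occurred in 10 of 51 members (19.6%), in 15.0% of tested genes and in 16.7% of all genes with a window. A match describes the letters of a window and is no evidence that a factor was bound there.

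The stretches below show the 2 called members first, followed by FBL, GNL3, IMP4 and NAT10, which fell, and LTV1 and PNO1, which did not fall, so that the same letters can be seen beside either outcome. These 6 were chosen after their values were seen. Each is read 5′ to 3′ on the gene's own strand from the RefSeq windows of GRCh38.p14, with the E-box or, for NPM1, the TEAD core in capitals. EBNA1BP2 has a match in each of its pair of windows, which belong to different annotated starts, and the first of them is cut short by the end of its window. The first capital lies 43 bases after the start (chr1:43172241-43172260, minus strand) and at -237 from it (chr1:43172790-43172819, minus) in EBNA1BP2, and at -61 (chr5:171387043-171387072, plus) in NPM1. It lies 7 bases after it in FBL (chr19:39846356-39846385, minus) and in GNL3 (chr3:52686026-52686055, plus), 16 bases after it in IMP4 (chr2:130342900-130342929, plus) and at -15 in NAT10 (chr11:34105602-34105631, plus). It lies 29 bases after it in LTV1 (chr6:143843354-143843383, plus) and 10 bases after it in PNO1 (chr2:68157885-68157914, plus).
EBNA1BP2, first window: gcgattcggtggCACGTGga
EBNA1BP2, second window: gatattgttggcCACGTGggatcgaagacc
NPM1: tttctttcaggaGGAATGttaaagattaag
FBL: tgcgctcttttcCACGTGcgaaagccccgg
GNL3: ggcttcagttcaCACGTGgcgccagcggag
IMP4: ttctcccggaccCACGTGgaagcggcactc
NAT10: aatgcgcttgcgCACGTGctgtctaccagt
LTV1: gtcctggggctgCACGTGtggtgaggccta
PNO1: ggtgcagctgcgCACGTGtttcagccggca

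**Figure D2:**
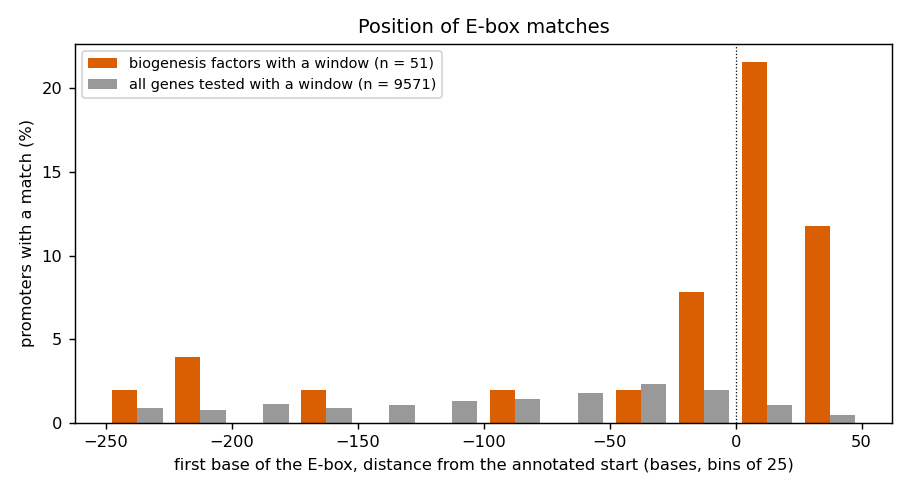
Share of promoter windows with an E-box (vertical axis, %) by the distance of its first base from the annotated start (horizontal axis, bins of 25 bases), for the 51 members (orange) and the 9571 tested genes (grey) with a window. Members peak in the first 25 bases after the start, where 21.6% of them and 1.08% of tested genes had a match.

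Pol I was divided evenly between increases and decreases. All 6 of its members passed the test, 3 of them lower and 3 higher, with a median of 0.068. UBTF, the upstream binding factor that opens ribosomal DNA for transcription, had 10.1 and 11.6 RPKM in shCtl and 19.0 and 18.4 RPKM in shM2-3 and the highest log2 fold change of any member, 0.85 ± 0.0625. POLR1A, the largest catalytic subunit of Pol I, had 4.25 and 4.45 RPKM in shCtl and 6.09 and 6.25 RPKM in shM2-3 (0.57 ± 0.0549 on the log2 scale), and RRN3, which ties the polymerase to the promoter factors, had 7.28 and 8.08 RPKM in shCtl and 10.1 and 9.92 RPKM in shM2-3 (0.45 ± 0.0677). In all 3 genes both shM2-3 cultures lay above both shCtl cultures. These genes had already passed as higher, and the share of all genes separated in this way was not counted. On the lower side, TAF1D, a subunit of the promoter selectivity factor and the most abundant of the 6, had 39.8 and 36.7 RPKM in shCtl and 20.03 and 20.6 RPKM in shM2-3 and a log2 fold change of -0.85 ± 0.0591. POLR1B, the second-largest subunit, fell by 0.31 and POLR1C, which is shared with Pol III, by 0.38 on the same scale. POLR1A and POLR1B, subunits of one enzyme, were thus on opposite sides of 0. TAF1D hosts 8 annotated snoRNA genes and overlaps CEP295, C11orf54 and MED17, and RRN3 overlaps PDXDC1 and has 3 named pseudogenes. UBTF overlaps an antisense gene, whereas POLR1A overlaps no other annotated protein-coding or long noncoding RNA gene.

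All 5 members of the nucleolar scaffold group fell, with a median of -0.45. After NPM1 came NCL, nucleolin, the other major non-ribosomal protein of the nucleolus, with 159 and 155 RPKM in shCtl and 85.5 and 88.5 RPKM in shM2-3 and a log2 fold change of -0.79 ± 0.0403. DDX21 (log2 fold change -0.45), an RNA helicase, and MYBBP1A (-0.44), a MYB-binding nucleolar protein, changed less. NOLC1, a chaperone of snoRNPs, had the smallest change, from 49.7 and 49.3 RPKM to 35.2 and 36.6 RPKM (-0.40 ± 0.0437).

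**Figure D3:**
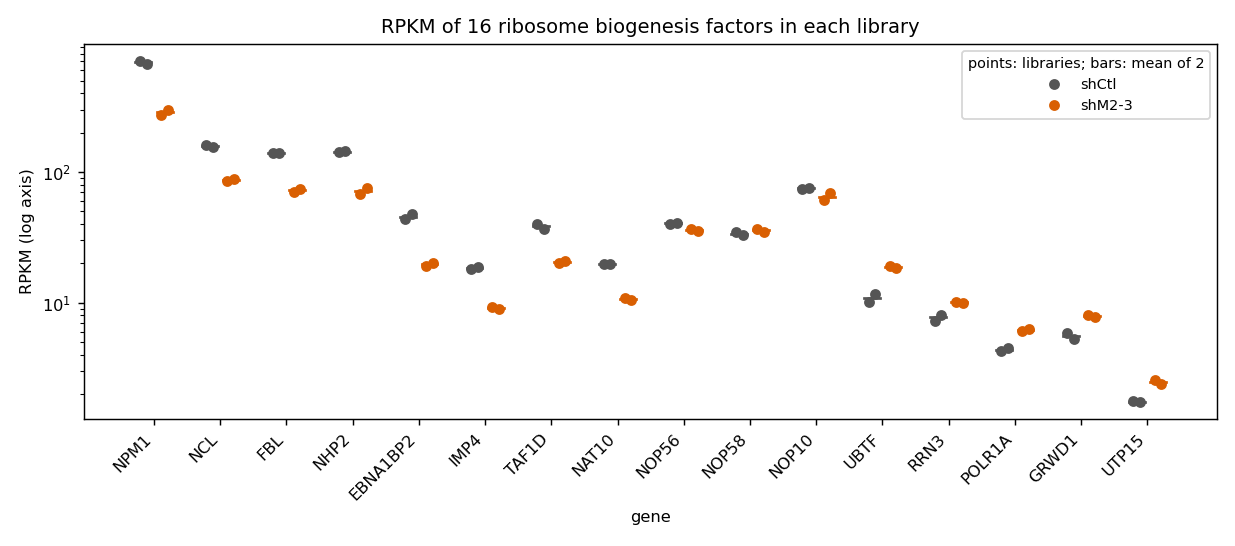
RPKM on a log axis (vertical) of 16 of the genes named in the text (horizontal axis) in each shCtl (grey) and shM2-3 (orange) library; points are libraries and bars the mean of 2. The pair of points within each group is close together, with NPM1 at 705 and 669.8 RPKM in shCtl and 273 and 296 RPKM in shM2-3.

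The box C/D snoRNP, which carries out guided ribose methylation, did not move as a unit. Its methyltransferase, fibrillarin (FBL), had 140.4 and 139 RPKM in shCtl and 69.6 and 74.5 RPKM in shM2-3, a log2 fold change of -0.89 ± 0.0489 and an adjusted p of 1.71e-09 in edgeR's quasi-likelihood test. SNU13, a box C/D gene from the wider list described below and not a member, fell too. It had 34.7 and 36.9 RPKM in shCtl and 26.7 and 27.4 RPKM in shM2-3 (log2 fold change -0.34 ± 0.0611). The core proteins among the members that hold the guide RNA beside FBL were close to their control level. NOP56 had 40.1 and 40.9 RPKM in shCtl and 36.4 and 35.4 RPKM in shM2-3 (-0.11 ± 0.0478) and missed the threshold with an adjusted p of 0.0532 in edgeR, although it passed under 6 of the alternative settings. NOP58 had 34.4 and 32.9 RPKM in shCtl and 36.7 and 34.5 RPKM in shM2-3 and rose by 0.15 on the log2 scale (SE 0.0554), with an adjusted p of 0.0284 in edgeR. That call was lost under 8 of the alternative settings, with a log2 fold change of 0.11 without shCtl replicate 2 and of 0.11 without shM2-3 replicate 1. NOP56 and NOP58 host snoRNA genes within their span, and the difference between FBL and these partners was not tested.

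In the box H/ACA snoRNP, which makes pseudouridine, all 4 log2 fold changes were below 0 and 2 members fell. NHP2, a core RNA-binding protein and the most abundant of the 4, had 141 and 144 RPKM in shCtl and 67.5 and 74.8 RPKM in shM2-3, and its log2 fold change was -0.94 ± 0.0561. DKC1, dyskerin, the pseudouridine synthase, went from 13.0 and 14.6 RPKM to 9.72 and 10.6 RPKM (-0.38 ± 0.0704). NOP10 had 74.2 and 75.5 RPKM in shCtl and 60.7 and 68.8 RPKM in shM2-3, without passing (log2 fold change -0.14 ± 0.0772, adjusted p 0.109 in edgeR). GAR1 had 13.7 and 14.0 RPKM in shCtl and 12.4 and 12.4 RPKM in shM2-3 (-0.10 ± 0.107, adjusted p 0.431 in edgeR), so its interval reaches values on both sides of 0. NOP10 stood at -0.24 and passed without shM2-3 replicate 2, stood at -0.048 without shM2-3 replicate 1, and also passed with total counts and under both limma settings, as GAR1 did under the latter. A difference between these genes and the 2 that fell was not tested.

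Of the 4 other enzymes that modify the precursor, 3 fell. NAT10, the RNA cytidine acetyltransferase, had 19.5 and 19.8 RPKM in shCtl and 10.8 and 10.5 RPKM in shM2-3 (-0.82 ± 0.0556). EMG1, a methyltransferase, had a log2 fold change of -0.51 ± 0.0660, and NOP2, a cytosine methyltransferase, of -0.19 ± 0.0661. NOP2 stood at -0.16 and did not pass without shCtl replicate 1 or without shM2-3 replicate 2. FTSJ3, a ribose methyltransferase and the most abundant of the 4 by mean RPKM, had 17.7 and 17.9 RPKM in shCtl and 16.7 and 18.7 RPKM in shM2-3, and its groups overlapped (0.061 ± 0.0638, adjusted p 0.401 in edgeR).

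The small subunit processome had 13 members, of which 9 fell, 1 rose and 3 did not pass, with a median of -0.41. IMP4, a protein of the U3 snoRNP at the heart of the particle, had 18.0 and 18.6 RPKM in shCtl and 9.29 and 8.96 RPKM in shM2-3 and the lowest log2 fold change of the group, -0.94 ± 0.0679. Its partner IMP3 fell too (-0.59 ± 0.0869), whereas the U3-specific protein RRP9 had 11.2 and 10.9 RPKM in shCtl and 8.78 and 9.93 RPKM in shM2-3 and did not pass (-0.17 ± 0.107, adjusted p 0.159 in edgeR). NOP14 was the most abundant of the group, with 58.2 and 59.1 RPKM in shCtl and 37.9 and 37.8 RPKM in shM2-3 (-0.57 ± 0.0414), and NOC4L, its binding partner, had a log2 fold change of -0.41 ± 0.103. Members of the subcomplex that binds the precursor first were unequal. WDR75 (-0.58), HEATR1 (-0.22) and WDR43 (-0.21) fell on the log2 scale, whereas UTP15, of the same subcomplex, had 1.75 and 1.75 RPKM in shCtl and 2.54 and 2.37 RPKM in shM2-3 and rose (0.56 ± 0.124). Without shM2-3 replicate 1, WDR43 stood at -0.14 and did not pass, and UTP20 stood at 0.22 and passed. UTP15 has the lowest level of all 58 members and overlaps ANKRA2. The helicase DDX10 (-0.58) and UTP18 (-0.45) fell, and DDX52 (0.11) and UTP20 (0.15) did not pass.

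Late maturation of the small subunit had the median nearest to 0, -0.031 over 6 members, of which 2 fell, 1 rose and 3 did not pass. The share that fell, 33.3%, was close to the 36.4% of all genes tested, and 16.7% rose, against 36.3%. NOB1, the endonuclease that makes the final cut of the small subunit RNA, had 57.9 and 56.3 RPKM in shCtl and 34.7 and 34.4 RPKM in shM2-3 (-0.66 ± 0.0494) and was the most abundant of the 6. TSR1, a GTPase-like factor of the same particle, fell too, from 41.9 and 40.7 RPKM to 27.4 and 27.9 RPKM (-0.51 ± 0.0438). PNO1, the partner of NOB1, had 4.58 and 5.35 RPKM in shCtl and 5.53 and 4.86 RPKM in shM2-3, with overlapping groups (0.13 ± 0.111, adjusted p 0.291 in edgeR). LTV1, an export and release factor, had 9.69 and 9.37 RPKM in shCtl and 10.6 and 10.9 RPKM in shM2-3 and rose (0.24 ± 0.0883, adjusted p 0.0277 in edgeR), a call lost under 6 alternative settings, with 0.21 without shCtl replicate 2, 0.26 without shM2-3 replicate 1 and 0.21 without shM2-3 replicate 2. BYSL (-0.016 ± 0.102) and RRP12 (-0.047 ± 0.0777) stayed near 0 and did not pass.

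Large subunit assembly was the largest group, with 17 members, of which 10 fell, 2 rose and 5 did not pass; its median was -0.44. After EBNA1BP2, the strongest decreases among these 17 were in the GTPases GNL3 and GNL2. GNL3, nucleostemin, the most abundant of the group, had 63.0 and 65.5 RPKM in shCtl and 34.8 and 36.1 RPKM in shM2-3 (-0.79 ± 0.0473), and its relative GNL2 went from 35.7 and 34.7 RPKM to 19.2 and 21.6 RPKM (-0.72 ± 0.0625). All 3 subunits of the PeBoW complex, which is needed to process the large subunit RNA, fell: BOP1 (-0.69 ± 0.0710), PES1 (-0.44 ± 0.0474) and WDR12 (-0.35 ± 0.0554). The NOC proteins, which accompany the early particle, fell as well, with log2 fold changes of -0.70 for NOC3L and -0.49 for NOC2L. PPAN (-0.55), which overlaps a readthrough gene with P2RY11, and NOP16 (-0.53) completed the decreases.

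On the other side of this group, GRWD1, a histone-binding WD-repeat protein, had 5.81 and 5.25 RPKM in shCtl and 7.98 and 7.71 RPKM in shM2-3 and rose (0.57 ± 0.0744). NIP7, which binds the precursor RNA, had 9.63 and 9.09 RPKM in shCtl and 11.6 and 10.3 RPKM in shM2-3 and rose by less (0.29 ± 0.0896, adjusted p 0.00971 in edgeR). Without shM2-3 replicate 1, NIP7 stood at 0.21 and did not pass. GRWD1 overlaps KCNJ14 in the annotation. The 5 that did not pass were RRP1, DDX18, MRTO4, SURF6 and RRS1, with log2 fold changes from -0.082 to 0.18.

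The size of the change varied with how abundant a gene was. Among the 17 members with a mean of 30 RPKM or more over the 4 libraries, 14 fell and 1 rose, with a median log2 fold change of -0.51. Over all genes at that level 52.3% fell and the median was -0.14. Of the 26 members between 10 and 30 RPKM, 16 fell and 3 rose (median -0.30), against 39.5% falling among all genes of that level. Of the 15 below 10 RPKM, 5 fell and 4 rose (median 0.11), against 31.4%. Spearman's rho between mean RPKM and log2 fold change was -0.586 across the 58 members, -0.564 without NPM1, -0.143 across 128 other biogenesis genes and -0.0599 across the 12157 genes tested. These are descriptions across genes, which share the same 4 libraries and are not replicates, and the same counts enter both quantities. Transcript length, as implied by the deposited counts and RPKM, moved with the change in the other direction, with rho at 0.330 for members and 0.188 for 12139 tested genes.

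**Figure D4:**
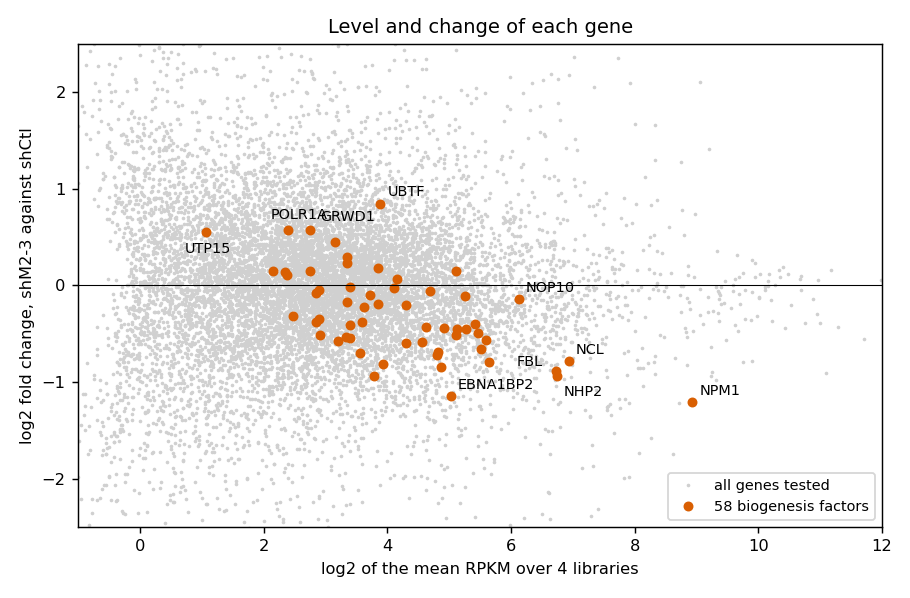
Log2 fold change, shM2-3 against shCtl (vertical axis, limited to 2.5 in either direction), by log2 of the mean RPKM over the 4 libraries (horizontal axis, from -1), for the 58 members (orange) and all genes tested (grey; those beyond the limits are not drawn). The most abundant members, at the right, lie below 0, and members on both sides of 0 are found at the left.

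The members together took a smaller share of all counts after knockdown, and the groups did not overlap. They took 0.714% and 0.704% of the estimated counts in shCtl and 0.458% and 0.469% in shM2-3. NPM1 alone made up 0.189% and 0.179% of counts in shCtl and 0.0750% and 0.0809% in shM2-3. Without NPM1, the share was 0.525% and 0.524% in shCtl and 0.383% and 0.388% in shM2-3, so both shM2-3 libraries stayed below both shCtl libraries. The median RPKM of the 58 members was 16.8 and 16.6 in shCtl and 14.1 and 14.0 in shM2-3.

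Of the 58 members, 10 carry snoRNA genes within their annotated span. Of these 10, 8 fell and 1 rose, with a median log2 fold change of -0.45. Of the 48 others, 27 fell and 7 rose, with a median of -0.33. No difference between these sets was tested.

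The rest of the pathway was described from a wider list. Of 136 other symbols listed for ribosome biogenesis, some of them older names of a listed gene, 128 were in the tables and tested. Among the 128, 59 fell (46.1%), 22 rose (17.2%) and 47 did not pass, with a median log2 fold change of -0.15. By edgeR, 3 were called lower (2.34%, against 8.93% of all genes tested), and none had a 2-fold increase at any p: RUVBL2 (75.7 and 76.0 RPKM in shCtl and 25.5 and 26.8 RPKM in shM2-3, log2 fold change -1.47 ± 0.0483), an ATPase that helps to assemble box C/D snoRNPs and other complexes, ZNHIT6 (8.66 and 8.29 RPKM in shCtl and 3.87 and 3.82 RPKM in shM2-3, -1.07 ± 0.0693), which works at the same step, and EXOSC8 (19.4 and 19.4 RPKM in shCtl and 8.15 and 8.24 RPKM in shM2-3, -1.18 ± 0.102), a subunit of the RNA exosome.

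Within Pol I the smaller subunits outside the list of 58 lay on the lower side, like POLR1B and POLR1C. ZNRD1 (-0.82), POLR1E (-0.76), CD3EAP (-0.76), POLR1D (-0.76) and TWISTNB (-0.18) all fell on the log2 scale, and TBP, which is shared with the other polymerases, rose (0.45 ± 0.129). With them, 7 of the 11 further Pol I genes fell and 2 rose. POLR1A thus rose while 7 other Pol I subunits measured here fell.

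Elsewhere in the pathway the extremes by role were as follows. In box C/D assembly, ZNHIT3 was highest without passing (-0.037 ± 0.124). Of the H/ACA assembly factors, NAF1 fell (-0.58 ± 0.139) and SHQ1 did not pass (-0.10 ± 0.104). Among modification enzymes, METTL5 was lowest (-0.84 ± 0.0870) and TRMT112, the cofactor of several methyltransferases, highest, without passing (-0.11 ± 0.0542). In the processome, 9 of 31 fell (29.0%, against 36.4% of all genes tested) and 7 rose (22.6%, against 36.3%). The log2 fold changes ran from DCAF13 (-0.67 ± 0.0522) to DDX49 (0.51 ± 0.116). Of the 4 further late small subunit genes, 2 fell and 2 rose, from RIOK2 (-0.37 ± 0.0633) to TSR2 (0.39 ± 0.0803).

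Large subunit assembly outside the list was split, with 19 of 44 lower (43.2%, against 36.4% of all genes tested) and 10 higher (22.7%, against 36.3%). It ran from EFL1, a GTPase (-0.88 ± 0.0714), to LSG1, the GTPase that acts last in the cytoplasm, which had 10.3 and 10.2 RPKM in shCtl and 17.6 and 16.4 RPKM in shM2-3 (0.80 ± 0.0658). Both act on late cytoplasmic particles, and they moved in opposite directions. GNL3L, a relative of GNL3, rose (0.59 ± 0.0793), whereas GNL3 and GNL2 fell. Of 22 nucleases and exosome subunits, 13 fell and 1, RPP30, rose (0.43 ± 0.0789).

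The ribosomal proteins themselves give a further comparison. Of 85 cytosolic ribosomal protein genes tested, 32 fell (37.6%, close to the 36.4% of all genes tested) and 17 rose (20%, against 36.3%), with a median of -0.043. Of 78 mitochondrial ribosomal protein genes, 57 fell (73.1%) and 1 rose (1.28%), with a median of -0.46. The 58 biogenesis factors, with a median of -0.38, thus lay nearer to the mitochondrial than to the cytosolic ribosomal proteins, although no difference between lists was tested.

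**Figure D5:**
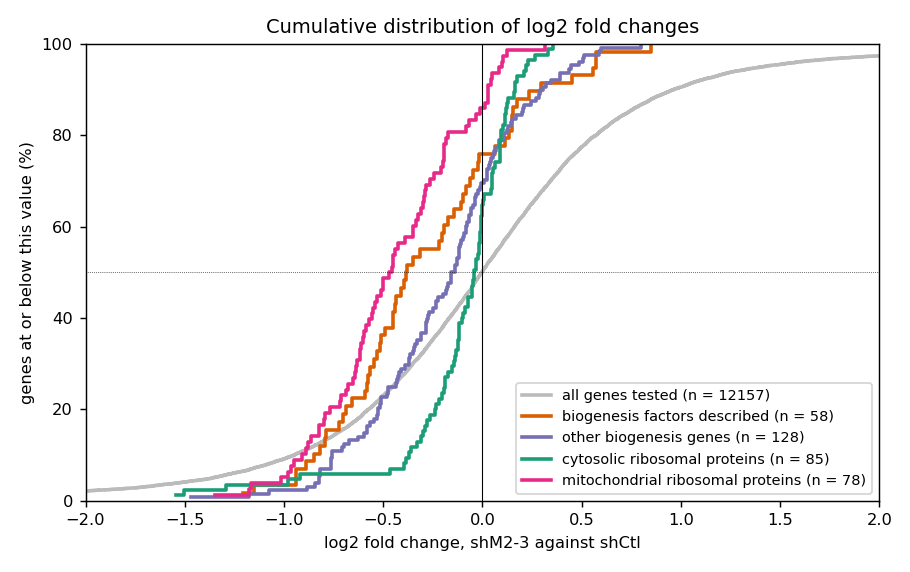
Cumulative share of genes (vertical axis, %) at or below each log2 fold change, shM2-3 against shCtl (horizontal axis, drawn from -2 to 2), for the 58 members, 128 other biogenesis genes, 85 cytosolic and 78 mitochondrial ribosomal protein genes and all 12157 genes tested. The curves cross the dotted line at 50% at their medians, -0.46 for mitochondrial ribosomal proteins, -0.38 for members, -0.15 for other biogenesis genes, -0.043 for cytosolic ribosomal proteins and -0.0037 for all genes.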

How the data were processed

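Total RNA of 4 ES-2 cultures was sequenced as unstranded paired ends of 150 bases. Per the paper's methods and the submitters' processing notes (HISAT2 2.0.4, Partek 7.18), the authors aligned reads to hg38, removed ambiguous and low-quality alignments and quantified RefSeq genes. The deposited estimated counts carry no normalization, and 42.4% to 48.59% of a library's values are whole. The deposited RPKM values scale these counts by gene length and library size.

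After rounding, the estimated counts of the 12157 genes that exceeded 1 RPKM in some library were compared by edgeR 4.0.16 under R 4.3.3 (TMM scaling, then glmQLFit and glmQLFTest, without a block), with Benjamini-Hochberg adjustment over all of them. A gene fell or rose at an adjusted p of 0.05 or less, and was called with a fold change of 2 or more besides. The SE is the log2 fold change divided by the square root of F. The study names edgeR and these limits, and not the test within it. Cultures were kept separately per the series' design text, so p-values set the group difference against the spread between cultures, with 2 per group. In edgeR that spread is estimated with information from all genes tested, and not from a gene's own cultures alone. The libraries held 20051083 and 20423873 (shCtl) and 23978660 and 21813798 (shM2-3) counts.

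The members, the other gene lists and the roles were chosen with earlier results of these data known. Values in every library are given for called members, for the lowest, the highest and the most abundant member of each role, and for members that rose. Of the other biogenesis genes, those called and the lowest and highest of each role are named. Others are named where a sentence on their complex needs them. Promoter windows come from RefSeq and loci from GENCODE release 44, both on hg38. BOP1, DDX18, DDX52, NOLC1, NOP58, RRP12 and RRS1 had no promoter window here. A gene counts as matched if any of its windows holds the letters, and 10 members have more than 1. Alternatives were DESeq2 1.42.0, its size factors or total counts in edgeR, unrounded counts, other filters, limma 3.58.1 on log2(RPKM + 0.1) and log2(RPKM + 1), a fold change of 1.5, leaving out each library in turn, and a block for the replicate number. The deviations of same-numbered cultures from their group means correlated at -0.0287 across genes. This shows no shared shift, but it cannot tell whether these cultures were handled together.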

Additional observations from a re-analysis of the deposited data

How the results depend on the processing

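The counts of members that fell (35) and rose (8) stayed within 1.5 times under each of the alternatives. The median of the members (-0.38) stayed below 0, from -0.44 under limma on log2(RPKM + 0.1) to -0.33 without shCtl replicate 2. Of the 35, 33 passed under every alternative (NOP2 and WDR43 did not), as did 5 of the 8 (LTV1, NIP7 and NOP58 did not) and both called members. With a fold change of 1.5, 14 of the 58 members were called lower and 1 higher, and of the 12157 genes tested 2302 lower and 2296 higher. Keeping genes above 1 RPKM in every library called 695 lower and 707 higher in place of 1086 and 1123, with fewer genes tested. Limma on log2(RPKM + 1) called 596 higher, and it called fewer genes lower too. The reason for the smaller counts under limma was not tested. With the replicate block, 35 members fell, 8 rose, 2 were called lower and the median was -0.38, and no call was changed. The labels give no pairing of the cultures, so the block is only a check. Of 812 results of single members under an alternative, 772 kept side and direction, 15 passed newly, 19 no longer passed and 6 changed sign, all in members that did not pass. FTSJ3 was at -0.0060 and -0.0056 under limma on log2(RPKM + 0.1) and log2(RPKM + 1). With each library left out in turn, FTSJ3 ran from -0.025 to 0.15, BYSL from -0.10 to 0.073 and RRP12 from -0.14 to 0.043, and the cause was not tested. The all-gene median shifted by at most -0.067, on RPKM. With 2 cultures per group, each SD rests on a pair of values.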
